A study of Sus scrofa with 4 samples.

Results

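Collagen crosslinking and processing enzymes were followed in cultured pig aortic valve interstitial cells, the fibroblast-like cells that make and maintain the valve matrix. The 9 genes were chosen by name, as the rows of the deposited gene table whose symbol is LOX, LOXL1, LOXL2, LOXL3, LOXL4, SERPINH1, PCOLCE, PCOLCE2 or BMP1. All 9 were among its 14804 rows, and all 9 were among the 13943 rows taken as measured because the authors' deposited table gives them an adjusted p-value. The study title concerns nitric oxide (NO), S-nitrosylation of USP9X, NOTCH signalling and calcification of the valve.

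The control group was primary valve interstitial cells cultured for 5 days and labelled only as control, with no vehicle named. The NO donor group was the same kind of culture with detaNONOate, which releases NO, at 150 µM for 5 days. Each group was 1 droplet single-cell library aimed at 2000 cells. The table gives 3 columns of counts per group without saying what they are, and they were taken here as parts of that library. The labels give no age, sex or number of animals, and say nothing of whether cells of several animals were mixed. The withdrawal library, with the donor for 3 days and then 2 days without it, and the library with S-nitrosoglutathione at 200 µM for 5 days were not analysed here.

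Fibrillar collagen is made as procollagen, folded in the endoplasmic reticulum, trimmed outside the cell and then joined into fibres by covalent crosslinks. SERPINH1 (HSP47) is the collagen-specific chaperone of the endoplasmic reticulum. BMP1 is the metalloproteinase that removes the C-terminal propeptide of procollagen, and it also activates the precursor of lysyl oxidase. PCOLCE and PCOLCE2 are secreted proteins that enhance this cleavage. LOX and LOXL1 to LOXL4 are copper-dependent amine oxidases that oxidise lysines of collagen and elastin, the step from which crosslinks form. In the aortic valve these fibres carry the load on the leaflets, and their excess stiffens diseased leaflets.

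Sequence upstream of 3 of the genes is shown to set 2 genes that were lower in the NO donor library, LOXL1 and SERPINH1, beside LOXL3, which lay near the control level. Each run is the 250 bases before the most upstream annotated transcript start in RefSeq on Sscrofa11.1, read 5′ to 3′ on the strand of the gene. Capitals mark the GC box GGGCGG and the SMAD core CAGAC, both searched on both strands. A match on the other strand appears as its reverse complement, and no 2 matches overlapped. The LOXL1 window lies at chr7:59505162-59505411 on the minus strand, that of SERPINH1 at chr9:9782689-9782938 on the plus strand and that of LOXL3 at chr3:68497864-68498113 on the plus strand.
LOXL1: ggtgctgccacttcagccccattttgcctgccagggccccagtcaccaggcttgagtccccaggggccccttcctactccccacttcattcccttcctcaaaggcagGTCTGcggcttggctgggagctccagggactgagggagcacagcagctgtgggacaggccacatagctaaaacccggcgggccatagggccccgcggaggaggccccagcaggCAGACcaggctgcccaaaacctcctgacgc
SERPINH1: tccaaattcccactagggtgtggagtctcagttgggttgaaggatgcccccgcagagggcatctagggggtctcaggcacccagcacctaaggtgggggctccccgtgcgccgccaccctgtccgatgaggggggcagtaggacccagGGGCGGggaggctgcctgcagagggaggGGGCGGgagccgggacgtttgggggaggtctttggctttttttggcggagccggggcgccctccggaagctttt
LOXL3: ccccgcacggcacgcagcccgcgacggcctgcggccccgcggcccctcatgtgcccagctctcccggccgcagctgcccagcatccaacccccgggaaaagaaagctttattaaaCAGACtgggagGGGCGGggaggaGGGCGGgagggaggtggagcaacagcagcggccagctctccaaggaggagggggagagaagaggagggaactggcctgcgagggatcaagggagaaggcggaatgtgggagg

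The GC box was found in the windows of LOX, LOXL4 and SERPINH1, 3 of the 7 genes that were lower, and in that of LOXL3; windows of 8 of the 9 genes were read. It was in 56.6% of the 12568 windows of measured protein-coding genes placed on a chromosome. The SMAD core was in the windows of LOX, LOXL1 and LOXL3, and in 38.3% of all windows. The TATA box TATAAA, the CCAAT box CCAAT, the AP-1 site TGANTCA and the heat shock element GAANNTTC had no match in any of the 8 windows, and were in 6.84%, 32.7%, 4.07% and 4.87% of all windows. The GC content of the 8 windows ran from 42.8% for PCOLCE2 to 77.6% for LOXL4, against a median of 60.8% over all windows. The PCOLCE window holds 1 annotated exon, so it is not wholly upstream sequence. Each motif was searched only in the form given here, on both strands, so other forms of it may be present. These matches describe letters only.

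Total counts per column ran from 6486628 to 8067661, and summed to 21289316 with the donor and 21807024 in the control. Values below are normalized counts at the authors' size factors unless total counts are named. The NO donor library has the larger size factors, so scaling both libraries to their total counts raises every log2 ratio by 0.60. The sources used here do not say how the columns arose, so they were taken as parts of 1 library and no test of the treatment was possible. Intervals are exact 95% intervals that cover counting error only, on the log2 ratio of NO donor over control (binomial) or on a share (binomial). Counts are not given per cell, so fewer cells of a type and less RNA per cell cannot be told apart. All 9 fibroblast markers were lower in the NO donor library by at least 1 log2 unit, as were 20.2% of all measured genes. Their summed normalized count was 40743 against 194873 in the control, where VIM (75712.5) and COL1A2 (53172) held the largest parts. COL1A1, COL1A2 and COL3A1 are among these markers and are also read below as fibrillar collagens. POSTN is also on the list of lysyl oxidase partners. All 5 genes on the smooth muscle list were lower too, 2679 against 89554, most of it ACTA2 in the control (57046, against 263 with the donor). DES was at 0 in the NO donor library and at 499, 103 and 209.6 in the control columns. Control columns of ACTA2 and DES scattered 152 and 125 times as much as counting. Whether these counts came from smooth muscle cells or from the interstitial cells was not tested. The 2 measured endothelial markers of 7 summed to 211 and 334, nearly all of it PECAM1, and the 2 measured leukocyte markers of 7 to 158 and 162, nearly all of it CD14. Of the cardiomyocyte markers only ACTC1 was measured, with 2 counts with the donor and 32 in the control. No epithelial marker on the list had a row under its symbol. The part of these shifts in the results below was not tested.

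In the NO donor library 7 of the 9 genes were lower by at least 1 log2 unit, a 2-fold difference, and none was higher by that much. The 9 genes were chosen with earlier results of these data known, so this count is not independent of the data. The background was 20.2% of measured genes lower and 14.5% higher by the same size, or 16.0% and 11.2% among the better counted upper 6972 genes, whose mean was no lower than the median of 91.7 and which hold 8 of the 9. The median log2 ratio of the 9 genes was −1.61, against 0.00 over all measured genes. Under total count scaling 5 of the 9 were lower by that size and none higher, with a median of −1.02 against 0.60 over all measured genes; there 11.9% of measured genes were lower and 33.2% higher. In the same 7 genes every NO donor column lay below every control column, which held for 36.3% of measured genes, while columns wholly above the control were found for none of the 9 and for 36.7% of measured genes. The authors' deposited table gives these 7 genes an adjusted p-value below 0.05 with a lower value, as it does 26.4% of measured genes; that p-value takes the columns as replicates.

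**Figure D1:**
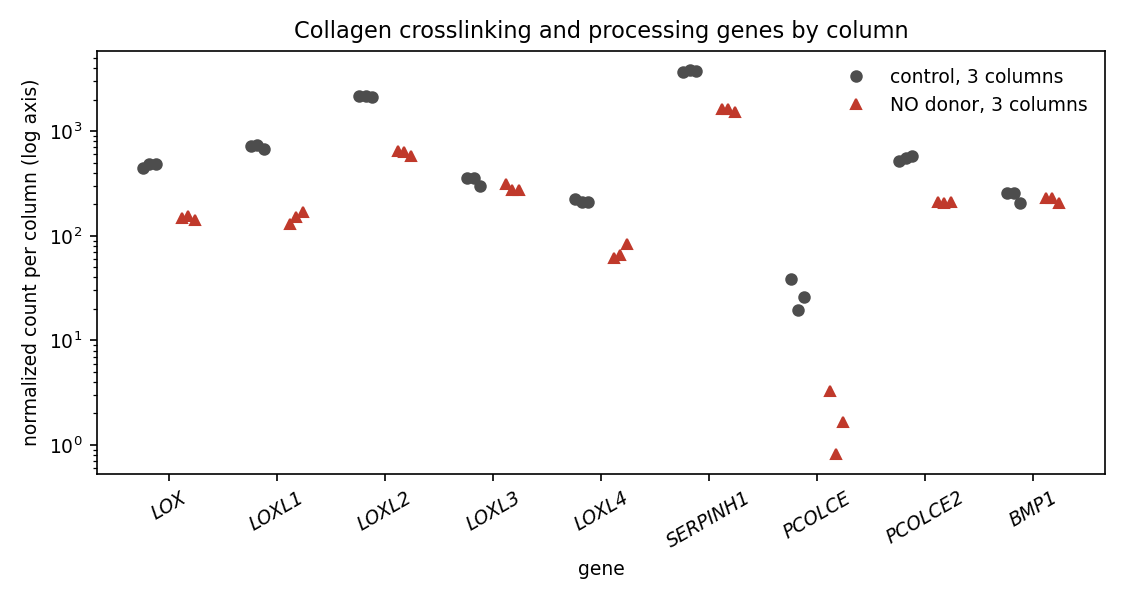
Normalized counts of the 9 genes on a log axis, with 1 point per column: circles for the 3 control columns and triangles for the 3 NO donor columns. The triangles lie below the circles in 7 genes, and the ranges overlap in LOXL3 and BMP1. Heights are to be compared within a gene, not between genes.

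The chaperone SERPINH1 (chromosome 9, 9782939 to 9794485, plus strand) had the highest counts of the set. Its normalized counts were 1621, 1627 and 1525 in the NO donor columns and 3666, 3855 and 3747 in the control columns. The lowest control column was 2.25 times the highest NO donor column. The log2 ratio was −1.24 (−1.29 to −1.19), 2.36-fold lower, and 16.3% of measured genes had a lower ratio. Under total count scaling it was −0.64 (−0.69 to −0.60), still lower but short of 1 log2 unit.

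Lysyl oxidases were lower in 4 of 5 genes. LOX, the founding member of the family (chromosome 2, 125595115 to 125607026, minus strand), had 149, 153 and 143 in the NO donor columns and 441, 489.6 and 483 in the control columns. The ranges were far apart, and the log2 ratio was −1.67 (−1.82 to −1.52), 3.18-fold lower. LOXL1, the paralogue tied to elastic fibre upkeep in mice (chromosome 7, 59481410 to 59505161, minus strand), had 131, 152 and 168 against 725, 737 and 671. At 4.72-fold lower, with a log2 ratio of −2.24 (−2.38 to −2.10), it had the lowest ratio of the family, and 7.05% of measured genes lay below it. All 3 NO donor columns lay far below all 3 control columns.

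LOXL2, one of the family members with scavenger receptor cysteine-rich domains (chromosome 14, 7435861 to 7540699, minus strand), had 646, 639 and 577 in the NO donor columns. In the control columns it had 2173, 2152 and 2143. The log2 ratio was −1.80 (−1.87 to −1.72), 3.47-fold lower. LOXL4, which carries the same domains (chromosome 14, 109571942 to 109593408, minus strand), had 61.9, 65.7 and 83.0 against 225, 211 and 209.6. Its log2 ratio of −1.61 (−1.83 to −1.40), 3.06-fold lower, had an interval that overlapped those of LOX and LOXL2. Under total count scaling LOX, LOXL1, LOXL2 and LOXL4 were at −1.07, −1.64, −1.20 and −1.02, each still past 1 log2 unit, although the intervals of LOX (−1.22 to −0.93) and LOXL4 (−1.24 to −0.80) reached above −1.

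LOXL3, the remaining family member with scavenger receptor cysteine-rich domains (chromosome 3, 68498114 to 68516829, plus strand), lay near the control level. Its columns held 311, 273 and 275 with the donor and 356, 359.6 and 299 in the control. The ranges overlapped through control column 3 alone, which lay below NO donor column 1. The log2 ratio was −0.23 (−0.36 to −0.10) at the authors' scaling and 0.36 (0.23 to 0.50) under total count scaling, so its direction depended on the scaling. The authors' deposited table gives it an adjusted p-value of 0.132 over the columns. LOXL3 overlaps HTRA2 on the opposite strand by 164 bases, and HTRA2 had a log2 ratio of 0.67; the sources used here do not say whether counting used strand.

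**Figure D2:**
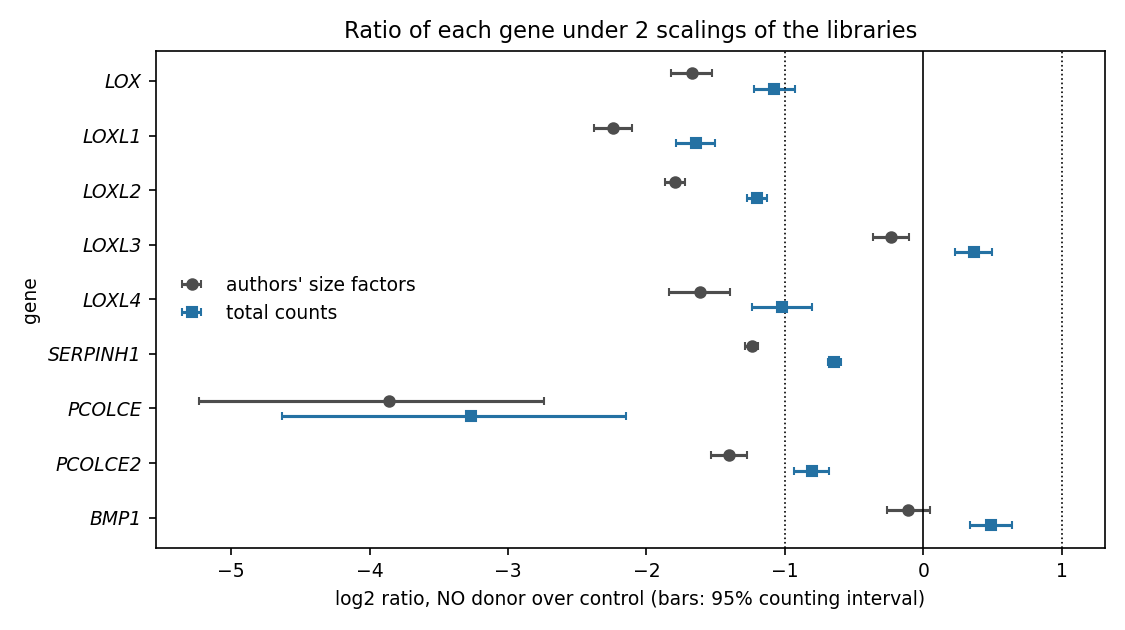
Log2 ratio of NO donor over control for each gene, with 95% counting intervals, at the authors' size factors (circles) and at total counts (squares); dotted lines mark 1 log2 unit. The 7 lower genes stay below 0 under both scalings, and LOXL3 and BMP1 move from below 0 to above it.

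A share of the family's own counts does not depend on how the libraries are scaled. The 5 lysyl oxidase genes summed to 4692 counts with the donor and 9688 in the control. LOXL3 made up 22.4% (21.3 to 23.7) of them with the donor and 8.65% (8.10 to 9.23) in the control. Its share by column was 23.9%, 21.3% and 22.0% with the donor and 9.09%, 9.10% and 7.86% in the control, so the columns did not overlap. LOXL1 went from 18.2% (17.5 to 19.0) in the control to 11.8% (10.9 to 12.7), and LOXL2 from 55.4% (54.4 to 56.4) to 48.7% (47.2 to 50.1). The LOX share, in the control 12.2% (11.5 to 12.8), was 11.6% (10.7 to 12.6) with the donor, so the intervals overlapped, and LOXL4, at 5.52% without the donor and 5.50% with it, also had overlapping intervals. The spliced transcripts of these paralogues share exact runs of at most 26 bases, found between LOX and LOXL1, LOXL2 and LOXL4, and LOXL3 and LOXL4.

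**Figure D3:**
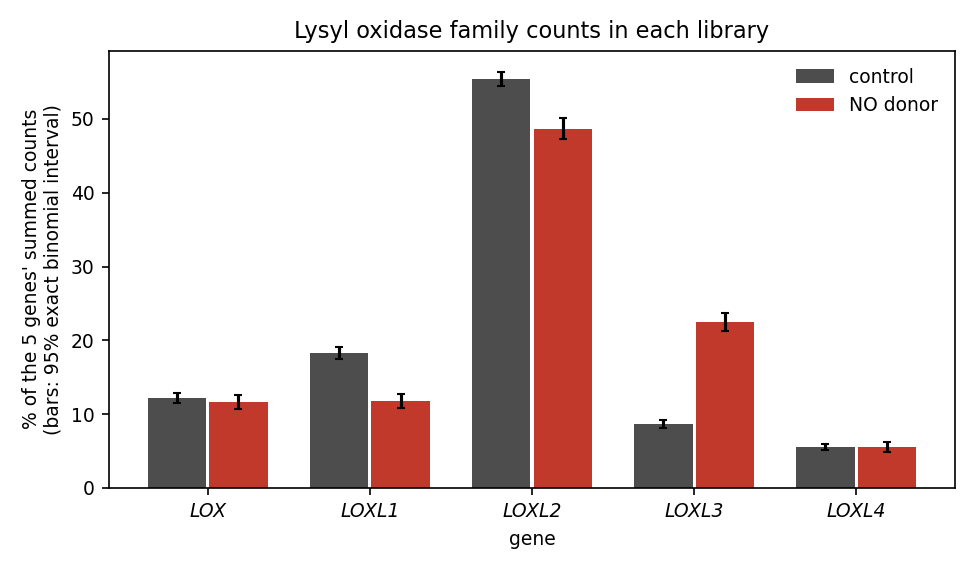
Percent of the summed counts of the 5 lysyl oxidase genes held by each gene, in the control and the NO donor library, with exact 95% binomial intervals. LOXL3 stands at 8.65% without the donor and 22.4% with it, while LOXL1 and LOXL2 hold smaller shares with the donor.

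The procollagen C-proteinase BMP1 (chromosome 14, 6443773 to 6489066, plus strand) also lay near the control level. Its columns held 228, 228 and 208 with the donor and 258, 256 and 206 in the control. The ranges overlapped, again through control column 3, which was the lowest of all 6. Its log2 ratio of −0.11 (−0.26 to 0.05) had an interval that held 0, and became 0.49 (0.33 to 0.64) under total count scaling. The authors' deposited table gives BMP1 an adjusted p-value of 0.570.

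Both enhancers of this proteinase were lower while BMP1 was near the control level. PCOLCE2 (chromosome 13, 83507607 to 83592929, minus strand) had 212, 205 and 209.6 in the NO donor columns and 523, 553 and 574 in the control columns. The ranges were apart, and the log2 ratio was −1.40 (−1.53 to −1.27), 2.64-fold lower, or −0.81 (−0.93 to −0.68) under total count scaling. PCOLCE (chromosome 3, 8523455 to 8528749, plus strand) was the scarcest of the 9, with 4, 1 and 2 counts in the NO donor columns and 29, 16 and 24 in the control columns. Normalized, these were 3.26, 0.811 and 1.64 against 39.0, 19.4 and 25.9. Its log2 ratio of −3.86 had a wide interval (−5.23 to −2.74), from 7 counts against 69. PCOLCE lies almost wholly inside the annotated span of FBXO24 on the same strand, 5289 bases shared, which leaves the counts of PCOLCE uncertain. FBXO24 had no row under its symbol.

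Overlapping annotations also touch other members: LOX, LOXL1 and SERPINH1 each overlap a gene on the opposite strand, and BMP1 shares 2102 bases with a long non-coding RNA gene on its own strand. The 1 of these with a row, beside LOXL1, had 3 counts with the donor and 12 in the control.

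Columns of 1 library scattered to differing degrees in these genes. The chi-square of the 3 counts over its degrees of freedom, which is near 1 for counting alone, ran from 0.0640 for PCOLCE2 to 2.84 for LOXL2 with the donor and from 0.0844 for LOXL2 to 3.17 for BMP1 in the control. Its mean over all genes that reached 15 counts was 1.39 with the donor and 1.36 in the control. Where this value is above 1, the printed counting intervals are too narrow.

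The genes were also set against their substrate, fibrillar collagen, which was far lower with the donor. The 9 measured fibrillar collagen genes summed to a normalized count of 15387 with the donor and 116936 in the control, 7.60-fold lower. The 9 crosslinking and processing genes summed to 3299 and 8463, 2.57-fold lower. Relative to collagen, 8 of the 9 had an interval above no change, but so did 91.9% of all measured genes and 97.4% of the better counted ones, so that count says nothing particular to these genes. With COL1A1 and COL1A2 alone as the reference it was again 8 of 9, against 92.7% and 97.8%. Their median log2 ratio relative to collagen was 1.31, against 2.93 over all measured genes, and those of LOXL3 and BMP1 were 2.69 and 2.82. Per 1000 fibrillar collagen counts of the same library, which no scaling changes, SERPINH1 stood at 103 with the donor and 32.1 in the control, 3.22-fold higher (3.11 to 3.32). BMP1 stood at 14.4 and 2.04, 7.06-fold higher (6.34 to 7.86), and LOXL3 at 18.6 and 2.88, 6.47-fold higher (5.91 to 7.10). The rest of the family ran from 1.61-fold higher (1.46 to 1.77) for LOXL1, at 9.76 and 6.06, to 2.48-fold (2.13 to 2.89) for LOXL4, at 4.56 and 1.84. PCOLCE2 was 2.88-fold higher (2.63 to 3.14). PCOLCE, at 0.124 and 0.237, had a ratio of 0.523 with an interval that held 1 (0.203 to 1.14). These intervals take the collagen sums, 56580 and 291421 counts, as fixed.

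**Figure D4:**
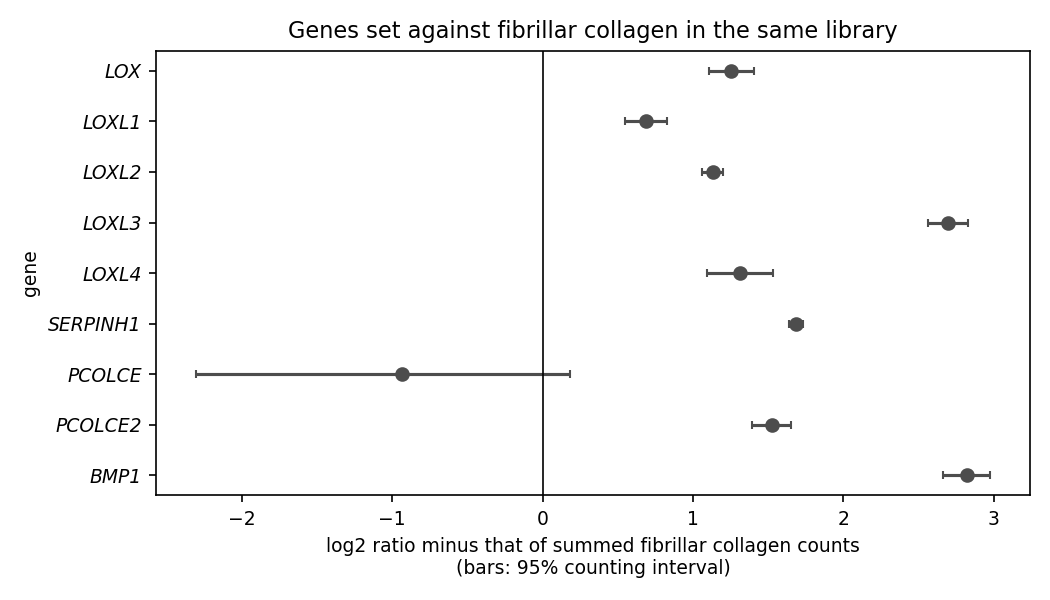
Log2 ratio of each gene minus the log2 ratio of the summed fibrillar collagen counts, with 95% counting intervals; 0 means a change equal to that of collagen. BMP1 at 2.82 and LOXL3 at 2.69 lie near the median of all measured genes, 2.93, the other members lie lower, and the interval of PCOLCE crosses 0.

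Other genes of the collagen pathway were read from 5 lists of 52 genes, 46 of them measured. These lists too were chosen with earlier results of these data known. By the 1 log2 unit rule 23 were lower and 3 higher, and their median log2 ratio was −0.96. Over all measured genes 20.2% were lower and 14.5% higher. Scaled to total counts, the pathway numbers became 14 and 7 and the median −0.36. There 11.9% of all measured genes were lower and 33.2% higher. The same shares stand beside the counts of each list below. Fibrillar collagens were lower in 8 of 9 measured genes, around a median of −2.67 (7 of 9 and −2.08 when scaled to total counts; −2.01 without NO donor column 3). Among the lower ones COL5A3 and COL11A1, named here for their low counts, had only 3 and 1 counts with the donor, against 23 and 11. COL1A1 and COL1A2, the chains of type I collagen, were at −4.33 (−4.37 to −4.29) and −2.67 (−2.69 to −2.65). COL3A1, the type III chain, was at −2.83 (−2.86 to −2.80), and COL5A1, a type V chain, at −2.03 (−2.17 to −1.90). Columns of COL1A1 in the control and of COL1A2 with the donor scattered 6.09 and 6.10 times as much as counting, and those of COL3A1 up to 3.77 times, so these intervals are too narrow.

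Hydroxylation and glycosylation genes, which modify the chains in the endoplasmic reticulum, were mostly nearer to the control. Of 14 measured genes 2 were lower, 1 was higher and 11 lay between. Their median was −0.28. Scaled to total counts, 1 was lower and 3 higher around a median of 0.32. The 2 lower ones at the authors' size factors were P3H3 and CRTAP, a subunit of the prolyl 3-hydroxylase complex. P3H3 was at −1.62 (−1.80 to −1.44) and CRTAP at −1.53 (−1.64 to −1.42). CRTAP had normalized counts of 312, 253 and 275 in the NO donor columns and 825, 824 and 782 in the control columns. Scaled to total counts CRTAP was at −0.93, short of the rule, and P3H3 at −1.02. P3H1, the enzyme of that complex, was at −0.64 (−0.75 to −0.52) and PLOD2, the lysyl hydroxylase of collagen telopeptides, at −0.71 (−0.82 to −0.60), neither past the rule. The 1 higher gene was P3H2, with 76 counts against 9, named after its value was seen.

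Of the 9 folding and export genes 5 were lower and 1 higher, around a median of −1.39. Scaled to total counts, 2 were lower and 2 higher around a median of −0.80. SEC24D and SEC23A, coat proteins of the vesicles that carry procollagen out of the endoplasmic reticulum, were at −1.85 (−1.98 to −1.71) and −1.61 (−1.74 to −1.48). FKBP14, a prolyl isomerase of the endoplasmic reticulum, was at −1.44 (−1.61 to −1.27). TMEM38B, an ion channel of that compartment, was at 1.51 (1.23 to 1.81), with 149.8, 142 and 137 in the NO donor columns and 61.9, 41.3 and 48.6 in the control columns. Among 5 measured propeptidases other than BMP1, 2 were lower and 1 higher, or 0 and 1 when scaled to total counts, and 1 was lower when control column 3 was left out. Their median of −0.05 ranged from −0.40 to 0.37 when 1 column was left out and was 0.55 when scaled to total counts. Only ADAMTS2, the main procollagen N-proteinase, had a mean above the median, and it was at −1.46 (−1.62 to −1.29). The other lower gene, ADAMTS14, had 5 counts with the donor and 9 in the control, and its interval held 0 (−3.33 to 0.32). ADAMTS14 was named after its value was seen. TLL2, a close relative of BMP1, was the higher one, with 74 counts against 16, and was also named after its value was seen.

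Partners of lysyl oxidase and copper suppliers, 9 of them measured, included 6 lower and 0 higher genes around a median of −1.51. Scaled to total counts, 4 were lower and 1 higher around a median of −0.92. The higher one was FBLN5, at 1.20, against 0.60 (0.48 to 0.73) at the authors' size factors. Of the copper genes, ATOX1 was at −1.21 and ATP7A at −0.33 at the authors' size factors, and SLC31A1 was not measured. FBLN5 and the copper genes were named after their values were seen. ELN, elastin, a substrate of these enzymes, was at −5.57 (−6.42 to −4.83) with 15 counts with the donor and 483 in the control. Its normalized counts were 0, 6.49 and 5.75 against 198, 145 and 234. The control columns scattered 9.12 times as much as counting and those with the donor also more than counting, so the interval is too narrow. THBS1, thrombospondin 1, was at −3.69 (−3.72 to −3.67), and its columns scattered 76.8 times as much as counting with the donor and 46.8 times in the control, so its interval is too narrow as well. EFEMP2 (fibulin-4), which brings LOX to elastic fibres, was at −3.39 (−3.51 to −3.26). FN1, fibronectin, which binds lysyl oxidase and BMP1, was at −1.51 (−1.54 to −1.49).

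**Figure D5:**
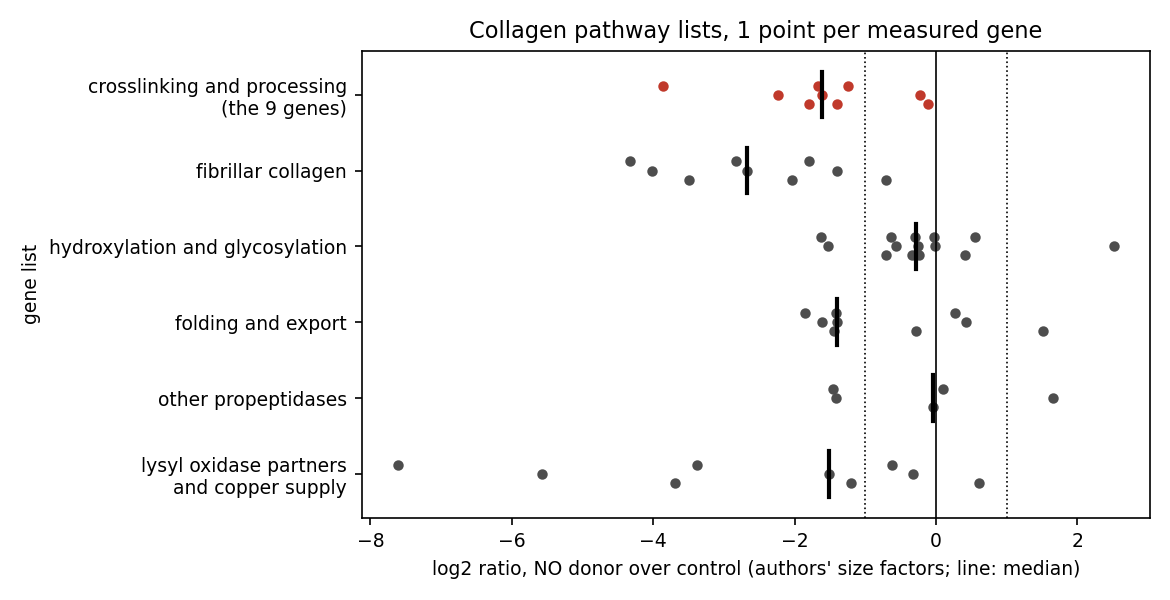
Log2 ratio of NO donor over control at the authors' size factors, with 1 point per measured gene and a line at the median of each list; dotted lines mark 1 log2 unit. The medians stand at −1.61 for the 9 crosslinking and processing genes, −2.67 for fibrillar collagen and −0.28 for hydroxylation and glycosylation.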

How the data were processed

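Single-cell libraries of cultured pig valve cells were summarised by the authors into 1 table comparing the NO donor with the control. Sscrofa11.1, DESeq2, Seurat 3.0 and Cell Ranger are listed, without roles, per the submitters' processing notes; neither filters on cells nor doublet handling are stated there. The 6 columns and their mean hold a signal, gene counts that the authors divided by a size factor, per the file headers. Divided by the smallest step of their column, 100% of values came out whole to within 0.01, which gave back the counts. The log2 fold change with its error, the Wald score and the p-value columns are the authors', from the deposited table. Levels are summed counts over summed size factors, with no pseudocount; a library at 0 was set to 3 counts for a ratio. Intervals are exact (Poisson or Clopper-Pearson; scipy 1.17.1). With 1 library per group a size rule of 1 log2 unit replaced a test, so edgeR's quasi-likelihood test was not the main result. As an alternative edgeR 4.0.16, taking the 6 columns as replicates, called 9881 of 13943 genes, and DESeq2 1.42.0 called 8327; neither tests the treatment. Scripts were tested on simulated data. Named genes were the 9 members and, per list, up to 4 genes with the largest absolute log2 ratio among those with a mean at or above the median. The members and lists were chosen with earlier results of these data known. Positions and upstream sequences are from RefSeq on Sscrofa11.1, matched by symbol for all 9 genes; the upstream window of BMP1 is not reported here, and protein sequences were not used here.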

Additional observations from a re-analysis of the deposited data

How the results depend on the processing

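The count of 7 lower and 0 higher genes among the 9 kept within 1.5 times its value under every alternative run, from 5 under total count scaling to 8 by edgeR or DESeq2 over the columns. Of all 13943 measured genes, edgeR called 4790 lower and 5091 higher over the columns, and DESeq2 4215 and 4112. Total count scaling moved the median of the 9 from −1.61 to −1.02, that of the pathway lists from −0.96 to −0.36, and the pathway counts from 23 lower and 3 higher to 14 and 7. Restricting the lists to genes with a mean at or above the median gave −1.30. Pathway genes counted as higher were 5 with a size rule of 0.5, 6 by the authors' adjusted p-value, 7 by edgeR and 6 by DESeq2 over the columns. Lower hydroxylation and glycosylation genes went from 2 to 9 of 14 by the authors' adjusted p-value. That p-value calls 26.4% of all measured genes lower, and 3442 of 13943 higher. The share of all genes past a size rule of 0.5 was not counted. TMM scaling, the authors' fold change, column means of log2 values with a pseudocount of 1 and leaving out any of the 6 columns kept each of the 9 log2 ratios within its counting interval. Without one column PCOLCE ranged from −4.50 to −3.50. Set against COL1A1 and COL1A2 in place of all fibrillar collagens, 8 of 9 lay above collagen, as did 92.7% of measured genes (97.8% of the better counted ones), with a median of 1.52 for the 9 and 3.14 for all measured genes. No paired analysis was possible because each group has 1 library. Counts limit PCOLCE most; no variation between cultures was measured.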
